A study of Mus musculus with 33 samples.

Results

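Retinoic acid is a small signalling molecule made from vitamin A that enters the nucleus and switches genes on or off. Retinaldehyde dehydrogenases such as ALDH1A3 carry out the last step of its synthesis, the cellular binding proteins CRABP1 and CRABP2 hold it in the cytoplasm, and retinoic acid receptors (RARs) bind DNA as pairs with retinoid X receptors (RXRs). In the embryonic forebrain, retinoic acid made in the lateral ganglionic eminence and retinoid receptors of its neurons are known for their part in the development of the striatum.

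The genes described here are 8 listed members of that pathway, Aldh1a3, Crabp1, Crabp2, Rara, Rarb, Rxra, Rxrb and Rxrg. They were chosen by symbol, with earlier results of these data known, and all 8 of 8 were found among the 14664 symbols of the count table. They were compared between Dlx1/2 knockout (KO) and wild-type (WT) ganglionic eminences, the swellings of the ventral forebrain that produce GABAergic neurons, at embryonic stage e13.5. DLX1 and DLX2 are homeodomain transcription factors of those neurons. The KO group was 4 libraries of Dlx1/2-/- embryos and the WT group 4 libraries of wild-type embryos, all of strain CD1, with 2 males and 2 females in each genotype per the labels. The labels give neither the exons removed by the alleles nor which library came from which sex, and they name no Cre or tissue-specific deletion.

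The KO libraries held 14.4 to 48.3 M counts and the WT libraries 20.2 to 117 M. Values are given as CPM, the count of a gene per 1 M counts of its library with library sizes scaled by TMM (a scaling that assumes most genes do not differ), and differences as log2 of KO over WT from edgeR's quasi-likelihood test. Both targeted genes were low in every KO library: Dlx1 averaged 23.4 ± 1.97 CPM in KO and 124 ± 4.53 CPM in WT, and Dlx2 averaged 1.27 ± 0.255 CPM in KO and 21.2 ± 5.85 CPM in WT (SD, n = 4 each). Across genotypes, replicates 1 and 2 deviated together from their group's mean (r = 0.216 to 0.671 across genes), as did replicates 3 and 4 (0.295 to 0.553). The pairs crossing that split were opposed (-0.600 to -0.248), which follows in part from the agreement, since deviations from a group's mean cancel within the group. The labels do not name this split. Calls that change with the replicate number as a block are given both ways.

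The promoters of Rarb, Rxrg and Crabp1, which were lower in KO, are shown first because the best known retinoic acid response element lies in that of Rarb. The RefSeq table of GRCm38.p6 gave promoters for 6 of the 8 genes, 12 in all, and the 2 genes without one are Aldh1a3 and Crabp2. Each sequence is the 250 bases before the annotated start, 5′ to 3′ on the gene's strand, and these coordinates belong to GRCm38 and not to mm9, the build of the deposited files. Capitals mark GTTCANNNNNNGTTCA, a direct repeat with a spacer of 5 bases (DR5) of the kind RAR and RXR pairs bind, and TAAT, the core of homeodomain sites, read on either strand (ATTA on the other).
Rarb, chr14:16575477-16575726, minus strand: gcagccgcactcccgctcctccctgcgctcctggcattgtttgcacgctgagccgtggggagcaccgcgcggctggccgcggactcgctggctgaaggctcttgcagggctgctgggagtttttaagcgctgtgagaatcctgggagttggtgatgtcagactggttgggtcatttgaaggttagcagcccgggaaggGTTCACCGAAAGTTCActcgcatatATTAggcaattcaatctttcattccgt
Rxrg, upstream start, chr1:167598112-167598361, plus strand: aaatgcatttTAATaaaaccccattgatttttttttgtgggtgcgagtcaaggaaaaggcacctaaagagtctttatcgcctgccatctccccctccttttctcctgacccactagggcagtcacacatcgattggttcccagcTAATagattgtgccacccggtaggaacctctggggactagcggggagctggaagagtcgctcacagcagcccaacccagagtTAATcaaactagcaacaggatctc
Rxrg, downstream start, chr1:167618015-167618264, plus strand: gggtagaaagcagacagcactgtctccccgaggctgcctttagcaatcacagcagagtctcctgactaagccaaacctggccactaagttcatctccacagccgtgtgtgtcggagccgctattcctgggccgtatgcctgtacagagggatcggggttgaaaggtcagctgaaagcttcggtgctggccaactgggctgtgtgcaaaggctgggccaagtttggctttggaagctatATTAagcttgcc
Crabp1, chr9:54764498-54764747, plus strand: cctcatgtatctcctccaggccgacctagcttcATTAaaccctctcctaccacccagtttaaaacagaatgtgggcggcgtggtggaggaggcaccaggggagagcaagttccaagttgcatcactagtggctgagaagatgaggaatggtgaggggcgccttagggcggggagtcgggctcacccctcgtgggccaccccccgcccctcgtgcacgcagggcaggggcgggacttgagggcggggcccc
The Rarb promoter held the repeat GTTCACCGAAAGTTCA at positions -52 to -37 from the start. The same motif, searched on both strands, was in 22 of 32851 promoters of that length (0.067%) and in no other of the 12 promoters. A looser form, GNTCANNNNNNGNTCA, which includes the first, was in 0.776% of promoters and again in Rarb alone among the 6 genes with a promoter. Repeats with spacers of 2 bases (GNTCANNNGNTCA, in 0.889% of promoters) or 1 base (GNTCANNGNTCA, in 1.011%) were in none of the 12. TAAT was in 7 of the 12 promoters, of Crabp1, Rara, Rarb, Rxra and Rxrg, and in 54.9% of all promoters. For Rara, 2 of the promoters overlap and hold the same site, which is counted in each. The longer TAATT, which contains TAAT, was in none of the 12 and in 25.0% of all. These matches describe letters in a short window and carry no measurement of binding.

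Aldh1a3, Crabp1, Rarb and Rxrg were lower in the KO eminences and no gene of the list was higher. Of the 8 genes, all of which were tested, 4 fell and 4 did not pass the test. Of all 14510 genes tested, 0.896% were called lower and 0.586% higher at an adjusted p under 0.05, 1.48% in all. The median log2 change of the 8 genes was -1.46, against -0.00267 over all genes tested. The 4 that fell, and Rara and Crabp2, 6 genes in all, had every KO value below every WT value, where 3.09% of all genes tested did and 2.89% had every KO value above every WT value. Because the 8 genes were chosen with earlier results of these data known, these contrasts with all genes are a description and not a test.

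**Figure D1:**
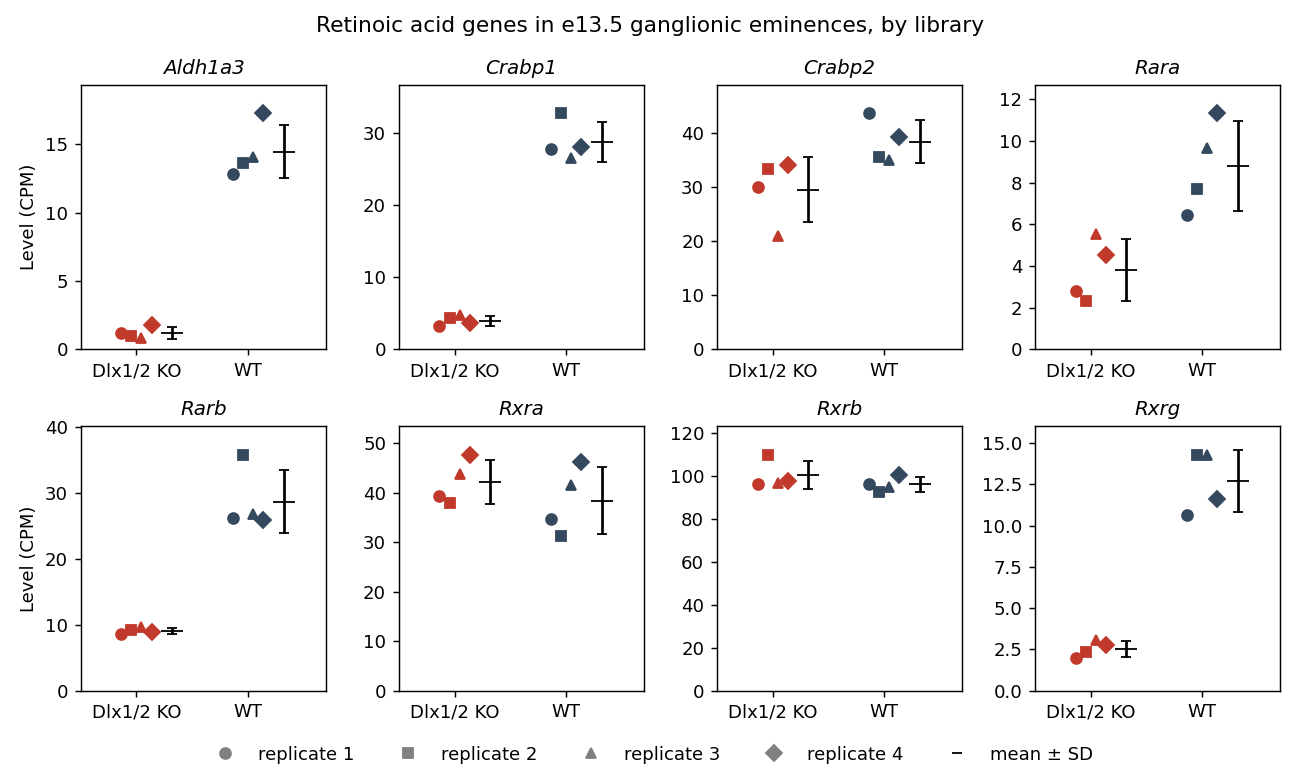
Level of each gene in CPM (y axis, from 0) in 4 Dlx1/2 KO and 4 WT libraries, with the marker shape giving the replicate number and the bar the mean ± SD. The KO points lie below the WT points without overlap for Aldh1a3, Crabp1, Crabp2, Rara, Rarb and Rxrg, while those of Rxra and Rxrb overlap.

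Synthesis was represented by Aldh1a3, which makes retinoic acid from retinaldehyde. It was at 1.19, 0.983, 0.869 and 1.81 CPM in the KO libraries, against 12.8, 13.7, 14.05 and 17.3 CPM in the WT libraries. Every KO library was low, and the groups were far apart. In reads this was 13 to 50 per KO library and 276 to 1463 per WT library. Aldh1a3 fell by 3.56 on the log2 scale (SE 0.21, adjusted p = 1.3e-05), to 8.39% of the WT mean, and this was the largest fall among the 8 genes. The other retinaldehyde dehydrogenase genes on the list of the wider pathway, Aldh1a1, Aldh1a2 and Aldh1a7, were not among the symbols of the count table and could not be tested. In whole tissue, fewer cells of a type and less RNA per cell cannot be told apart, and this holds for each change below.

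The binding proteins differed from each other. Crabp1, which holds retinoic acid in the cytoplasm, was at 3.23, 4.31, 4.75 and 3.66 CPM in the KO libraries, against 27.8, 32.8, 26.5 and 28.0 CPM in the WT libraries. The 4 KO values lay close together and far below the WT values. Crabp1 fell by 2.87 (SE 0.14, adjusted p = 4.0e-06), to 13.8% of the WT mean. Crabp2, which passes retinoic acid to nuclear receptors, was at 30.0, 33.4, 20.9 and 34.1 CPM in KO, against 43.7, 35.7, 35.1 and 39.3 CPM in WT. The groups did not overlap, but the highest KO value and the lowest WT value were close, and KO replicate 3 was low beside the other KO libraries. Its log2 change of -0.38 (SE 0.15, 95% interval -0.71 to -0.04) did not pass the test over all genes (adjusted p = 0.52), nor with the replicate number as a block (adjusted p = 0.0777).

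Among the retinoic acid receptors, Rarb, which is enriched in the developing striatum, fell. It was at 8.61, 9.16, 9.63 and 8.85 CPM in the KO libraries, against 26.2, 35.8, 26.9 and 25.9 CPM in the WT libraries. The KO libraries were all alike, with an SD of 0.44 CPM, and WT replicate 2 was high beside the other WT libraries. Rarb fell by 1.66 (SE 0.12, adjusted p = 5.6e-05), to 31.6% of the WT mean. Leaving out any 1 library kept this call, with log2 changes from -1.71 to -1.54.

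Rara, the more widely expressed receptor of the family, was low in every KO library too, but its call depended on the model. It was at 2.80 and 2.34 CPM in KO replicates 1 and 2 and at 5.55 and 4.54 CPM in KO replicates 3 and 4. The WT libraries showed the same split, with 6.43 and 7.72 CPM in replicates 1 and 2 and 9.68 and 11.3 CPM in replicates 3 and 4. No KO value reached a WT value, although KO replicate 3 came near WT replicate 1. The log2 change was -1.25 (SE 0.28, 95% interval -1.88 to -0.62, adjusted p = 0.0701), on 83 to 118 reads per KO library and 156 to 735 per WT library. With the replicate number as a block the change was -1.26 and passed (SE 0.15, adjusted p = 0.0012), as 2.16% of all genes tested did in that direction. Within replicates 1 and 2 it was -1.45 (adjusted p = 0.0040, where 1.38% of genes were called lower) and within replicates 3 and 4 it was -1.07 (adjusted p = 0.0303, where 0.819% were). DESeq2 also called it (adjusted p = 0.0011, with 1.64% of genes called lower), and the authors' deposited table lists it at -1.24 with an adjusted p of 0.00068. The libraries of replicates 1 and 2 differ from the others in both genotypes, and what sets them apart was not tested. Rarg, the remaining receptor of this family, is in the table but not among the listed genes, and was picked for mention with its values in view. It was at 3.25 ± 0.488 CPM in KO and 2.73 ± 0.477 CPM in WT (SD, n = 4 each), with a log2 change of 0.23 (SE 0.17, 95% interval -0.16 to 0.62) that did not pass.

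Among the retinoid X receptors, Rxrg, known from striatal projection neurons, was the gene that fell. It was at 1.97, 2.36, 3.08 and 2.77 CPM in the KO libraries, against 10.6, 14.3, 14.3 and 11.6 CPM in the WT libraries. Each KO library was at or below 3.08 CPM and each WT library above 10 CPM. Rxrg fell by 2.34 (SE 0.17, adjusted p = 5.4e-05), to 20.1% of the WT mean, on 46 to 113 reads per KO library. Rxra was at 39.4, 37.8, 43.7 and 47.7 CPM in KO, against 34.6, 31.2, 41.6 and 46.2 CPM in WT, and the groups overlapped. Its log2 change was 0.14 (SE 0.14, 95% interval -0.17 to 0.44) and did not pass. Rxrb was at 96.2, 109.8, 96.7 and 97.6 CPM in KO, against 96.2, 92.3, 94.7 and 100.4 CPM in WT. Its groups overlapped as well, and the log2 change of 0.06 (SE 0.08, 95% interval -0.11 to 0.24) did not pass. These intervals leave out a fall of the size seen for Rxrg in either gene.

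**Figure D2:**
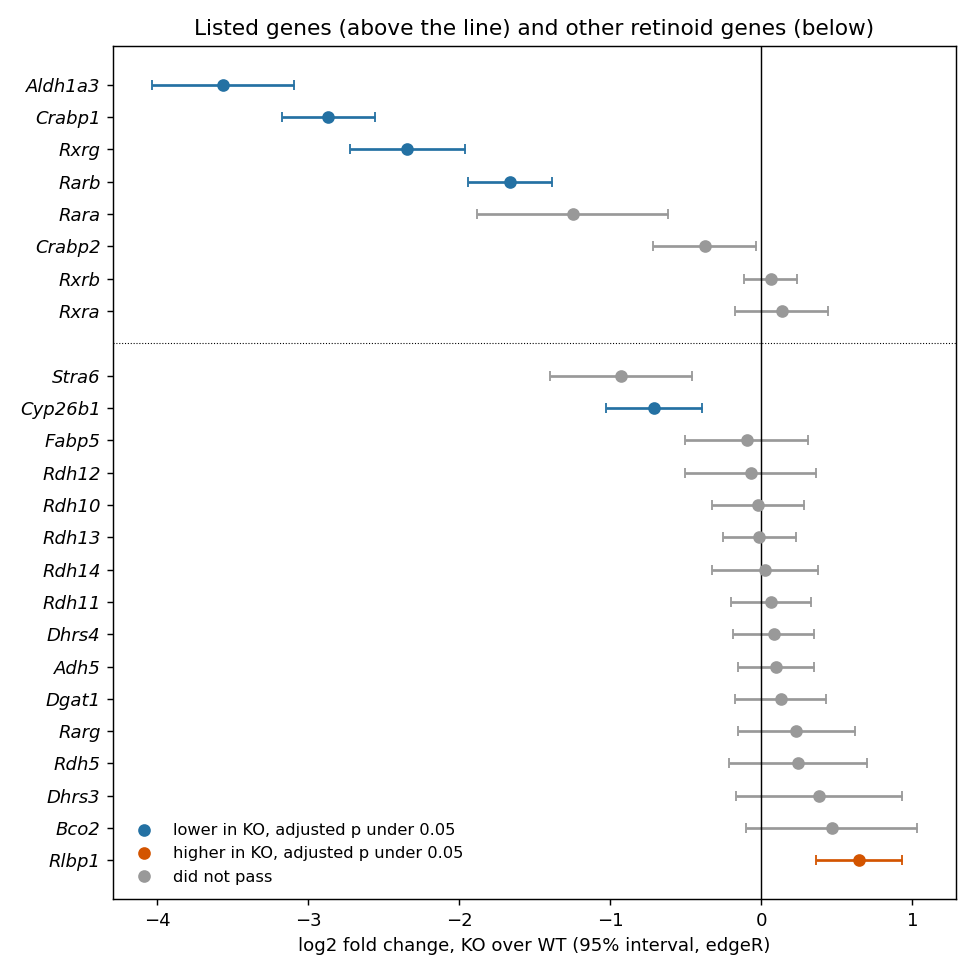
log2 fold change of KO over WT (x axis) with its 95% interval from edgeR for the 8 listed genes, above the dotted line, and 16 of the 17 other retinoid genes that were tested, below it. Blue points fell, the orange point rose and grey points did not pass. The 4 falls of the listed genes run from -3.56 to -1.66, while no other retinoid gene shown lies below -0.93.

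**Figure D3:**
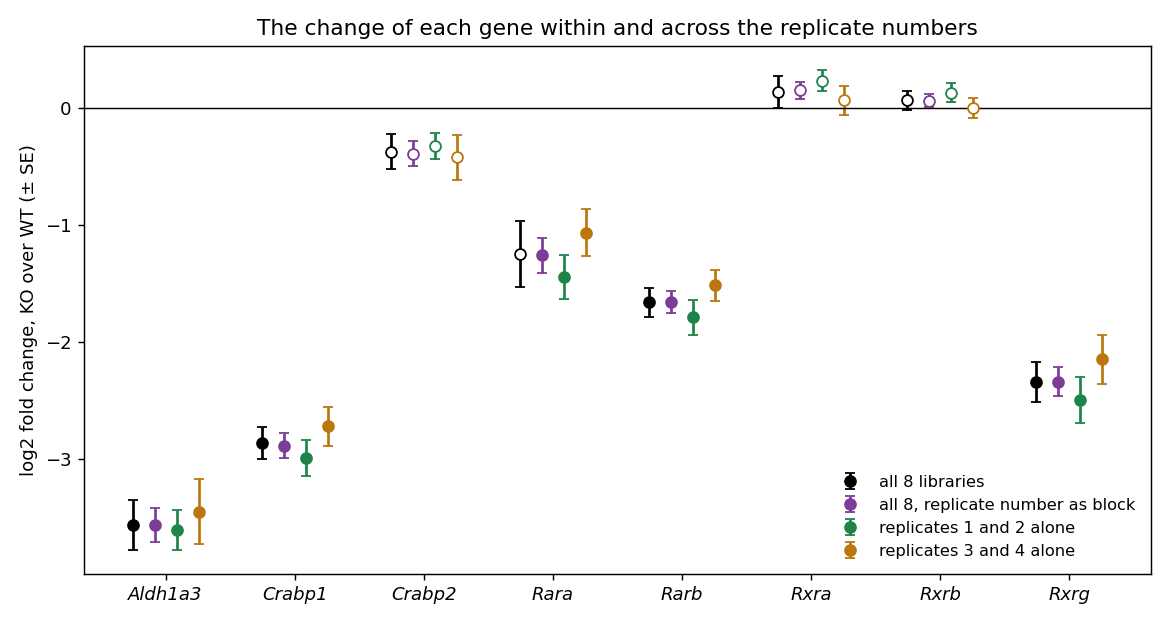
log2 fold change of KO over WT ± SE (y axis) for each of the 8 genes with all 8 libraries, with the replicate number as a block, and within each pair of replicate numbers. Filled points passed the adjusted p threshold of 0.05 and open points did not. Rara passed in the 3 settings that account for the replicate numbers or stay within them, and the other genes kept the same side of the threshold in all 4 settings.

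Whether relatives within a family changed by different amounts was tested on the log2 ratio of their CPM in each library, a quantity in which gene length cancels between genotypes. In all, 5 ratios were tested with a two-sided exact permutation test, whose smallest possible p with 4 against 4 is 0.0286, adjusted over the 5. Crabp1 over Crabp2 was at -3.22, -2.95, -2.14 and -3.22 in KO, against -0.652, -0.123, -0.406 and -0.487 in WT. It was lower by 2.47 log2 units in KO, without overlap (exact p = 0.0286, adjusted 0.0476). Rxrg over Rxra averaged -4.07 ± 0.207 in KO and -1.59 ± 0.364 in WT, and Rxrg over Rxrb averaged -5.32 ± 0.308 in KO and -2.93 ± 0.254 in WT (SD, n = 4 each, exact p = 0.0286 and adjusted 0.0476 for both). The Rxrg ratios differed between KO and WT by -2.47 and -2.39 log2 units. The adjusted 0.0476 needs these ratios and the Crabp1 ratio to reach the smallest p together. Alone, none of them would pass, and both Rxrg ratios rest on the same Rxrg values. Rxrb over Rxra averaged 1.25 ± 0.218 in KO and 1.34 ± 0.217 in WT (exact p = 0.6, n = 4 each). With the replicate numbers as pairs, each KO library was below the WT library of the same number in all 5 ratios, and an exact sign-flip test of the 4 pairs gave p = 0.125 for each, the smallest it can give, so no ratio can pass in that test.

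Rarb over Rara did not separate the genotypes. It was at 1.62, 1.97, 0.795 and 0.963 in KO, against 2.03, 2.21, 1.47 and 1.19 in WT (exact p = 0.314, adjusted 0.393, n = 4 each). In both genotypes the ratio was higher in replicates 1 and 2 than in replicates 3 and 4.

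**Figure D4:**
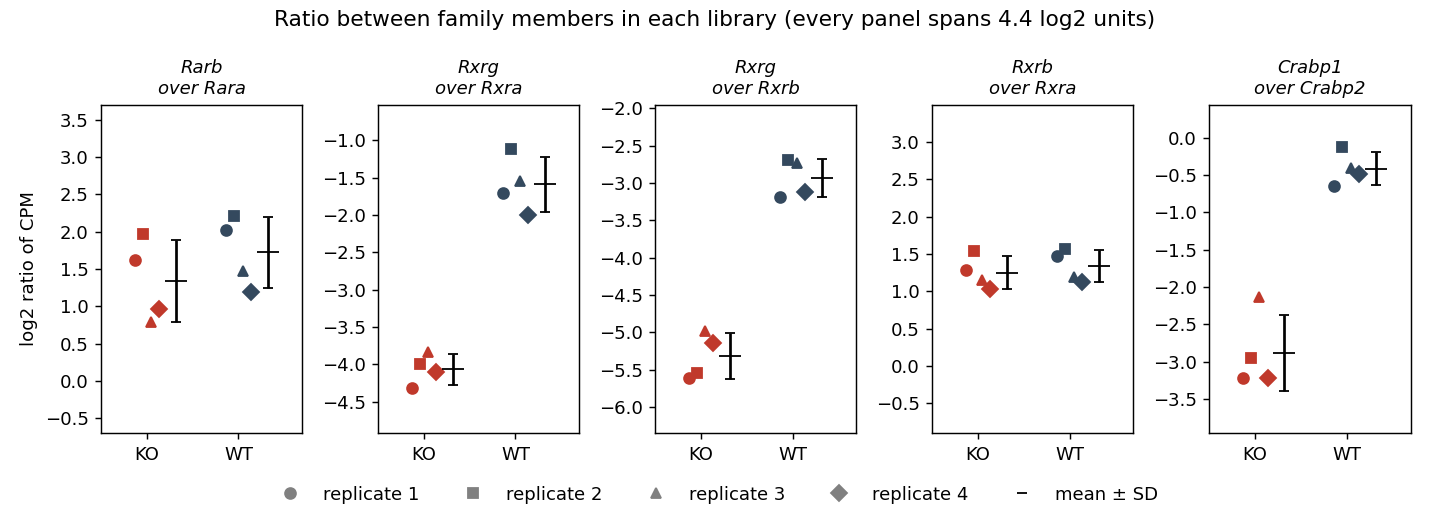
log2 ratio of CPM between relatives (y axis, each panel spanning 4.4 log2 units) in 4 KO and 4 WT libraries, with the marker shape giving the replicate number and the bar the mean ± SD. The ratios with Rxrg or Crabp1 on top separate the genotypes, and the ratios Rarb over Rara and Rxrb over Rxra do not.

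Most other genes that supply, bind or remove retinoids, counted here with Rarg, did not pass the test. Of 36 such genes listed, 18 were in the table and 17 were tested, of which 4 had an unadjusted p under 0.05 with edgeR. The share of all genes under that unadjusted cutoff was not counted, so such counts, here and below, cannot be read against it. After adjustment 2 fell, 1 rose and 14 did not pass, with a median log2 change of 0.06. Of those that fell, Cyp26b1, an enzyme that breaks retinoic acid down, was at 3.70, 2.82, 3.41 and 3.73 CPM in KO, against 5.41, 6.04, 6.03 and 4.88 CPM in WT, and fell by 0.71 (SE 0.14, adjusted p = 0.0401). Rlbp1, a retinaldehyde binding protein, rose by 0.65 (SE 0.13, adjusted p = 0.0369), with 53.9 to 78.6 CPM in KO and 40.8 to 47.7 CPM in WT. In neither Cyp26b1 nor Rlbp1 did the groups overlap, but their calls were close to the threshold. Cyp26b1 lost its call whichever library was left out (adjusted p from 0.0529 to 0.132), and Rlbp1 kept its call only without KO replicate 3 (adjusted p from 0.00673 to 0.131). Both passed with the replicate block (adjusted p = 0.0301 for Cyp26b1 and 0.0020 for Rlbp1).

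Stra6, the cell surface receptor for retinol uptake, averaged 1.44 ± 0.358 CPM in KO and 2.72 ± 0.391 CPM in WT (SD, n = 4 each). Its log2 change of -0.93 (SE 0.21) had an adjusted p of 0.0707 with edgeR. It passed with the replicate block (adjusted p = 0.0252), with DESeq2 (0.0060) and with edgeR without KO replicate 4 (0.0433). Fabp5, a fatty acid binding protein that also carries retinoic acid, was at 151 ± 29.8 CPM in KO and 161 ± 36.6 CPM in WT. The retinol dehydrogenase Rdh10 averaged 11.1 ± 0.662 CPM in KO and 11.3 ± 1.99 CPM in WT, and its interval ran from -0.33 to 0.28 on the log2 scale. Adh5, an alcohol dehydrogenase, was at 289 ± 30.02 CPM in KO and 271 ± 32.9 CPM in WT. Stra6 and Rdh10 were picked for mention with their values in view. None of these 4 genes passed edgeR's test over all 8 libraries without the block.

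The proteins through which the receptors act gave no called gene. None of 18 coregulators tested passed with edgeR, where 2 had an unadjusted p under 0.05, or with DESeq2, and their median log2 change was -0.03. With the replicate block 1 of them, Nrip1, a corepressor induced by retinoic acid, was called lower. The most abundant coregulators, the histone methyltransferase gene Nsd1 and the deadenylase scaffold gene Cnot1, changed by -0.08 and 0.01 on the log2 scale, with standard errors of 0.08 and 0.10. None of 9 receptors that pair with RXRs passed with edgeR or DESeq2, and 0 had an unadjusted p under 0.05. Thra, the thyroid hormone receptor alpha, was at 248 ± 14.7 CPM in KO and 269 ± 27.9 CPM in WT, and Nr1h2, the liver X receptor beta, at 21.0 ± 3.38 CPM in KO and 20.4 ± 6.24 CPM in WT (SD, n = 4 each).

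Of 27 listed genes known to respond to retinoic acid in some tissue, 18 were tested. With edgeR, 11 of these had an unadjusted p under 0.05, a cutoff for which no share of all genes was counted. In 8 of the 18 every KO value lay below every WT value and in 1 above, where 3.09% and 2.89% of all genes tested did. After adjustment 2 fell and 16 did not pass, with a median log2 change of -0.10. Among those that fell, Foxp1, a transcription factor of striatal projection neurons, was at 17.3 ± 2.39 CPM in KO and 35.8 ± 2.95 CPM in WT, and fell by 1.05 (SE 0.12, adjusted p = 0.0010). Meis2, a homeodomain factor of the same territory, was at 289 ± 20.3 CPM in KO and 381 ± 27.5 CPM in WT, a log2 change of -0.40 (SE 0.09, adjusted p = 0.0680). Gap43, a growth cone gene, was at 290.1 ± 48.1 CPM in KO and 259 ± 52.8 CPM in WT and did not pass.

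The response genes depended on the model more than the 8 listed genes did. With the replicate block 7 of the 18 were called lower, among them Stra6, Meis1, Meis2, Nrip1, Foxp1 and Oprm1, and 1, the orphan receptor gene Nr2f1, was called higher. DESeq2 called 5 lower and 1 higher. With the block, 2.16% of all genes tested were called lower and 2.22% higher, and with DESeq2 1.64% were called lower and 1.57% higher. Of the 21 genes whose RefSeq promoter held the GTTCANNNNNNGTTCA repeat, 3 were in the table. Rarb, whose own element has the letters of this motif, fell. Blvrb, at a log2 change of 0.26 (SE 0.19), and Dmd, at -0.11 (SE 0.08), did not pass.

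Most markers of GABAergic neurons fell, as Aldh1a3, Crabp1, Rarb and Rxrg did. Of 12 such markers, 10 had an unadjusted p under 0.05 with edgeR. After adjustment 8 fell, among them Gad1, Gad2, Slc32a1, Dlx5, Dlx6, Sp8 and Ebf1, with a median log2 change of -1.42 over the 12. The summed level of the 12 was 444 to 547 CPM in KO and 792 to 940 CPM in WT. Gad2, a GABA synthesis enzyme, fell by 1.49, and Slc32a1, the vesicular GABA transporter, by 3.23. Bcl11b, at 173 ± 40.2 CPM in KO and 223 ± 50.0 CPM in WT, and Isl1, at 144 ± 19.0 CPM in KO and 105 ± 8.84 CPM in WT, did not pass without the block. With the replicate block 10 of the 12 were called lower, now with Bcl11b (log2 change -0.37, adjusted p = 0.0094) and Ikzf1 (-1.08, adjusted p = 0.0279), and 1, Isl1, a factor of striatal and cholinergic neurons, was called higher (0.45, adjusted p = 0.0111). DESeq2 called 8 lower and Isl1 higher (adjusted p = 0.0101). The part of these neurons in the falls of the retinoic acid genes was not tested.

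Of 12 pan-neuronal markers 0 passed with edgeR without the block or with DESeq2, and 0 had an unadjusted p under 0.05. With the replicate block 1 of them, Stmn2, was called lower (log2 change -0.27, adjusted p = 0.0337). Their summed level was 5385 to 5603 CPM in KO and 5747 to 6399 CPM in WT, and their median log2 change -0.12. Tubb3 and Map2 changed by -0.19 and 0.01. Of 12 progenitor markers 0 passed with edgeR, where 3 had an unadjusted p under 0.05, while DESeq2 called 3 higher and the replicate block 4, among them Sox2, Hes5 and Gsx2. Their summed level was 3619 to 4326 CPM in KO and 2987 to 3615 CPM in WT, with a median log2 change of 0.23, of 0.36 for Fabp7 and of 0.05 for Top2a. The part of either population in the retinoic acid genes was not tested.

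Markers of other tissues that a dissection could hold were also read, among them the meninges and the eye, which make retinoic acid. Of 9 meningeal and mesenchymal markers tested, 12 cortical glutamatergic markers, 2 of 12 eye and olfactory markers and 6 erythroid markers, 0 passed with edgeR or DESeq2, and 0 had an unadjusted p under 0.05. The meningeal sum was 32.02 to 60.4 CPM in KO and 31.2 to 47.5 CPM in WT, with Pdgfrb and Col3a1 at log2 changes of 0.19 and 0.08. The cortical sum was 591 to 763 CPM in KO and 554 to 672 CPM in WT, with Neurod6 and Slc17a6 at 0.27 and 0.21. The eye sum, from Mitf (-0.26) and Six3 (-0.18), was 4.62 to 5.98 CPM in KO and 5.90 to 7.07 CPM in WT. The erythroid sum was 1434 to 2059 CPM in KO and 1691 to 1922 CPM in WT, with Hbb-y and Alas2 at -0.05 and 0.33.

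The genes most like each fallen member across the 8 libraries were read from Pearson's r of log2(CPM + 0.5) among 13362 genes, as a description only, since the libraries are shared and split into the same 2 genotypes. Aldh1a3 was most like Dlx5 (r = 0.994), Dlx1 (0.994) and Slc32a1 (0.991). Crabp1 was most like Gad2 (0.998), the vesicular monoamine transporter gene Slc18a2 (0.998) and the neurexin gene Nrxn3 (0.994). Rarb was most like Slc18a2 (0.993), the guanylate cyclase subunit gene Gucy1a3 (0.993) and the vasopressin receptor gene Avpr1a (0.992). Rxrg was most like Slc18a2 (0.993), the RNA editing enzyme gene Adarb2 (0.993) and Dlx6 (0.991). Slc18a2, which stood near 3 of the 4 genes, was at 19.7 ± 1.56 CPM in KO and 73.8 ± 5.61 CPM in WT (SD, n = 4 each).

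The authors' deposited table of the same libraries gives log2 changes of -3.57 for Aldh1a3, -2.87 for Crabp1, -2.33 for Rxrg and -1.66 for Rarb, all with an adjusted p far under the threshold. The authors' deposited table lists Crabp2 at -0.38 with an adjusted p of 0.324, Rxra at 0.14 and Rxrb at 0.06. Rara is thus the listed gene on which the authors' table and the edgeR test without a block fall on different sides of the threshold.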

How the data were processed

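RNA was sequenced from 4 Dlx1/2 KO and 4 WT ganglionic eminence samples. Per the labels, RNA came from 4 embryos of each genotype, 2 males and 2 females. They do not tie embryos to libraries, and p-values measure the spread between these libraries. The deposited read counts per gene symbol were made by the authors. STAR 2.4.2a, bcl2fastq and build mm9 are named per the submitters' processing notes. For the counting tool, the annotation and the strand setting the labels hold no entry, and a gene and its antisense partner may share reads. The labels name both polyA RNA and a total RNA kit with ribosomal RNA removal. The same file holds the authors' deposited log2 fold changes and log2 CPM, a likelihood-ratio score, and p-values with adjusted p-values (tool not given). Their log2 fold changes and adjusted p-values are quoted under their name.

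The counts were tested with edgeR 4.0.16 (R 4.3.3, quasi-likelihood test, TMM, filterByExpr with a minimum count of 10, Benjamini-Hochberg adjustment over 14510 genes, threshold 0.05, genotype as the only term). CPM is the count over the TMM-scaled library size. SE is the log2 fold change over the root of F. The code was tested on simulated counts. DESeq2 1.42.0, other scalings, no filter, a replicate block, each library left out and each pair of replicate numbers alone were alternatives. Replicate numbers come from the sample titles, and libraries with the same number deviated together (r = 0.216 to 0.553 across genes), so the block is read as a pairing, although KO replicate 1 was closer to WT replicate 2 (0.476) and KO replicate 2 to WT replicate 1 (0.671).

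The 8 genes and all gene lists were chosen with earlier results of these data known. Named genes were the 8, Dlx1 and Dlx2, every called gene of a list with its 2 most abundant uncalled genes, and the 3 genes most like each called member with a mean of at least 1 CPM. Other names are marked as chosen later, except the genes named as called under an alternative and those chosen by a promoter motif. Gene length is not in the table, so levels are not compared between genes. Promoters and chromosomes come from RefSeq (GRCm38.p6). A few called list genes that the rule names are counted but not reported here by name. The ChIP-seq peak lists of the series, on mm9, were not used here.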

Additional observations from a re-analysis of the deposited data

Results flagged for a closer look

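In each group of 4 libraries, the larger gap between an end value and its nearest value was divided by the range of the 4 values. An end value was singled out when this ratio passed Dixon's critical value at 95% confidence, which chance gives in about 1 of 20 groups. Of 120 groups read, 6 were singled out. Rarb was at 35.8 CPM in WT replicate 2, above 25.9 to 26.9 CPM in the other WT libraries; without that library its log2 change still passed. Rxrb was at 109.8 CPM in KO replicate 2, above 96.2 to 97.6 CPM in the other KO libraries. Cnot1 was at 326 CPM in WT replicate 1, below 344 to 347 CPM in the others. Gad1 was at 62.8 CPM in KO replicate 3, above 42.8 to 43.3 CPM in the others. Adarb2 was at 36.5 CPM in WT replicate 4, below 41.8 to 42.9 CPM in the others. WT replicate 1 held 117 M counts, above 20.2 to 24.1 M in the other WT libraries. What set these values apart was not tested.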

How the results depend on the processing

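Aldh1a3, Crabp1, Rarb and Rxrg kept their direction and their call under every alternative run, and Crabp2, Rxra and Rxrb were called in none. The log2 change of Rxrb was -0.0035 within replicates 3 and 4 alone, against 0.06 over all libraries. Rara passed at -1.26 with the replicate block, -1.23 with DESeq2, -1.45 within replicates 1 and 2 alone, -1.07 within replicates 3 and 4 alone and -1.26 with replicates 1 and 2 against 3 and 4 as a block, an alternative chosen after seeing the data. Leaving out 1 library gave Rara -1.46 to -1.06, and it passed only without KO replicate 3 (-1.46, adjusted p = 0.0433, edgeR; adjusted p up to 0.213 in the others). The listed genes called rose in number to 5 where Rara passed and were otherwise 4. Genes called over the whole table numbered 215, against 635 with the replicate block, 471 with DESeq2, 380 within replicates 1 and 2 alone, 669 with the block chosen after seeing the data, and 142 to 184 without 1 library (142 without KO replicate 1). In the paired sign-flip test of the replicate block, the differences in log2 ratio, -2.47 for Rxrg over Rxra, -2.39 for Rxrg over Rxrb and -2.47 for Crabp1 over Crabp2, had an adjusted p of 0.125, the smallest that 4 pairs allow. The cause of these differences was not tested, except that fewer samples enter some fits. No scaling moved the median of all genes by over 0.1. Aldh1a3 rests on 13 reads in KO replicate 3, the shallowest library.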
